A study of Mus musculus with 3 samples.

Results

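Among sorted tumour T cells, 86 of 14992 cell barcodes (0.574%) carried macrophage transcripts. They were selected on raw RNA counts: at least 10 unique molecules (UMIs) of C1qa, C1qb, C1qc and Lyz2 together, and at least 5 of Cd74. A barcode needed 500 genes or more, no more than 10% of its UMIs from mitochondrial genes, and a larger hashtag of at least 150 UMIs and 3 times the other. B16-Ova contributed 22 of 6585 barcodes (0.334%, exact 95% interval 0.209 to 0.505) and MC38-Ova 64 of 8407 (0.761%, 0.587 to 0.971). The intervals here and below cover counting error only. Most of the selected barcodes also held T cell RNA, so they are called macrophage-transcript barcodes and not macrophages.

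The cells came from C57BL/6 mice bearing subcutaneous B16-Ova melanoma or MC38-Ova colon carcinoma, 2 lines that carry ovalbumin, with tumours taken on day 14. Sorting kept TCRB+ CD3+ CD90.2+ CD11b- events, a gate that asks for T cell surface markers and leaves out the CD11b+ events among which most macrophages lie. All cells went into 1 droplet capture of 10x Genomics 5′ chemistry, with hashtag 1 marking B16-Ova and hashtag 2 marking MC38-Ova, so each tumour is 1 pool of cells without a replicate and the number of mice behind it is not given. No test between tumours or cell sets could therefore be made, and every ratio below is a description of these pools.

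Macrophages clear debris and dying cells and present antigen. In tumours they are a main source of C1q, the first component of the classical complement pathway, of lysozyme (Lyz2) and of apolipoprotein E (Apoe), and many carry MHC class II, whose invariant chain is Cd74. Those in poorly perfused tumour regions often express arginase 1 (Arg1), which breaks down the arginine that T cells need. L-Pha, a bean lectin, was added to the cells because it attaches to N-glycans with the β1,6 branch that the Golgi enzyme Mgat5 makes.

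Surface molecules and tumour of origin were read from oligonucleotide tags, whose barcodes are given here because each tag value below is a count of one of these sequences. The capitals mark the whole barcode, 5′ to 3′. The tag named Biotin is an antibody tag against biotin and counts the biotin-coupled L-Pha.
hash#2: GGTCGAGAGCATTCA
Biotin: CGGTATATCAACAGA
PD1: GAAAGTCAAAGCACT
hash#1: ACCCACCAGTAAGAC
Tim3: ATTGGCACTCAGATG

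The values that chose the barcodes are given first, as a description. C1qa (chromosome 4, 136895917 to 136898803, minus strand, GRCm38), C1qb and C1qc encode the 3 chains of C1q. In the 22 B16-Ova barcodes C1qa ranged up to 209 UMIs with a median of 3, and in the 64 MC38-Ova barcodes up to 130 with a median of 9. At least 1 C1qa UMI was present in 14 of 22 and 51 of 64. Lyz2 (chromosome 10, 117277331 to 117282321, minus strand) ran from 1 to 222 UMIs with a median of 38 in B16-Ova, and from 0 to 212 with a median of 8.5 in MC38-Ova. Cd74 ran from 5 to 796 (median 80) and from 6 to 1006 (median 86.5). The barcodes of both tumours thus covered the same wide span, from a few UMIs to the highest counts.

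Of all other barcodes, 89.5% in B16-Ova and 90.0% in MC38-Ova held no UMI of C1qa, C1qb, C1qc or Lyz2, and their 99th percentile was 2. Summed over these cells, C1qa stood at 4.12 UMIs per 1000000 RNA UMIs (CPM) in B16-Ova and 5.50 in MC38-Ova, against 699 and 670 in the macrophage-transcript barcodes. A C1qa UMI occurred in 3.17% and 3.06% of other cells. Free RNA was not measured apart from cell barcodes, so the source of these UMIs was not tested. The ratio of Lyz2 to C1qa was 1.90 and 1.62 in the selected barcodes and 1.14 and 0.868 in the others. Just inside the threshold lay 5 barcodes with 10 to 12 marker UMIs (median 33301 RNA UMIs) and 3 with 5 or 6 Cd74 UMIs. Just outside lay 10 with 7 to 9 marker UMIs and enough Cd74 (median 11257.5 RNA UMIs), and 10 with 11 to 222 marker UMIs but at most 3 of Cd74 (median 4767.5).

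Apoe and Arg1 were not used to select the barcodes, though they come from the same cells. Apoe (chromosome 7, 19696109 to 19699188, minus strand) was present in 17 of 22 B16-Ova barcodes (0 to 38 UMIs, median 8.5) and 53 of 64 in MC38-Ova (0 to 158, median 8). Arg1 (chromosome 10, 24915221 to 24927484, minus strand) was present in 6 of 22 (0 to 104, median 0) and 47 of 64 (0 to 100, median 8.5). After each barcode was thinned to 1000 RNA UMIs, Apoe remained in 40.9% and 40.6% of the selected barcodes, against 0.872% and 0.695% of other cells, and Arg1 in 13.6% and 40.6% against 0.301% and 0.621%. No selected barcode was too shallow for this, and 255 and 286 other cells were left out. Csf1r, the receptor for macrophage colony-stimulating factor, was detected in 59 of 86 selected barcodes and 81 of 14906 others. Itgam, which encodes the CD11b used for exclusion in the sort, was detected in 40 of 86 (46.5%) and in 122 of 14906 (0.818%). Macrophage genes outside the selection rule thus accompanied those inside it.

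**Figure D1:**
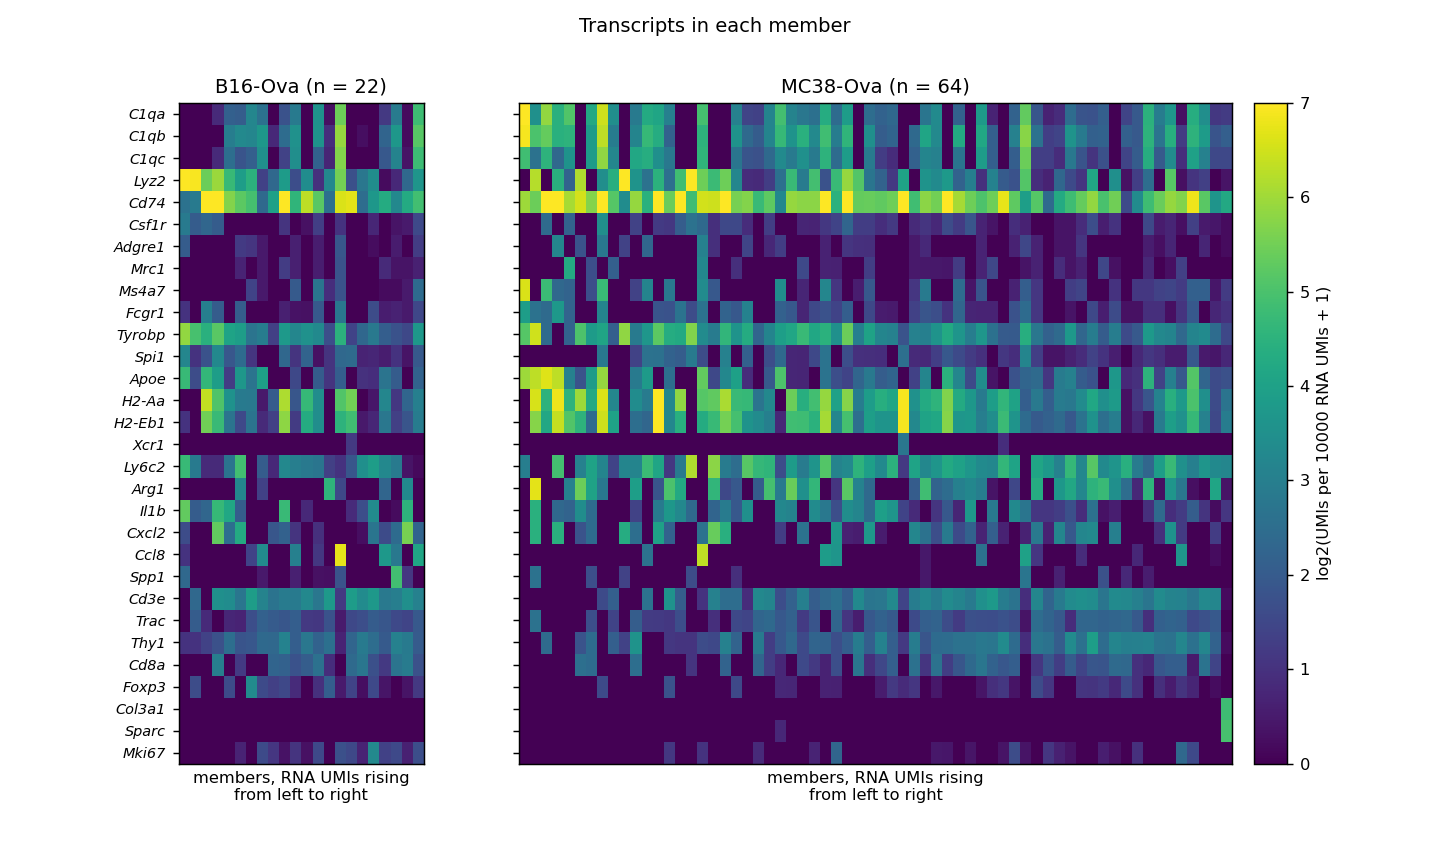
Expression of 30 genes in the 86 macrophage-transcript barcodes, as log2 of UMIs per 10000 RNA UMIs plus 1 with the colour scale capped at 7. Each column is a barcode, ordered by RNA UMIs within its tumour. In most of the 73 columns with Cd3e both macrophage and T cell genes are filled.

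The selected barcodes were large. RNA UMIs ran from 9580 to 72238 in B16-Ova (median 38956) and from 1444 to 68954 in MC38-Ova (median 21777), while other cells had medians of 6104 and 6260. Own-hashtag counts ran from 279 to 8044 (median 2488) and from 352 to 38061 (median 3628.5), against medians of 447 and 476. The ranges overlapped those of other cells, of which 1195 also held at least 20000 RNA UMIs. A threshold on raw counts favours barcodes of high depth, and its part in these values was not tested.

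**Figure D2:**
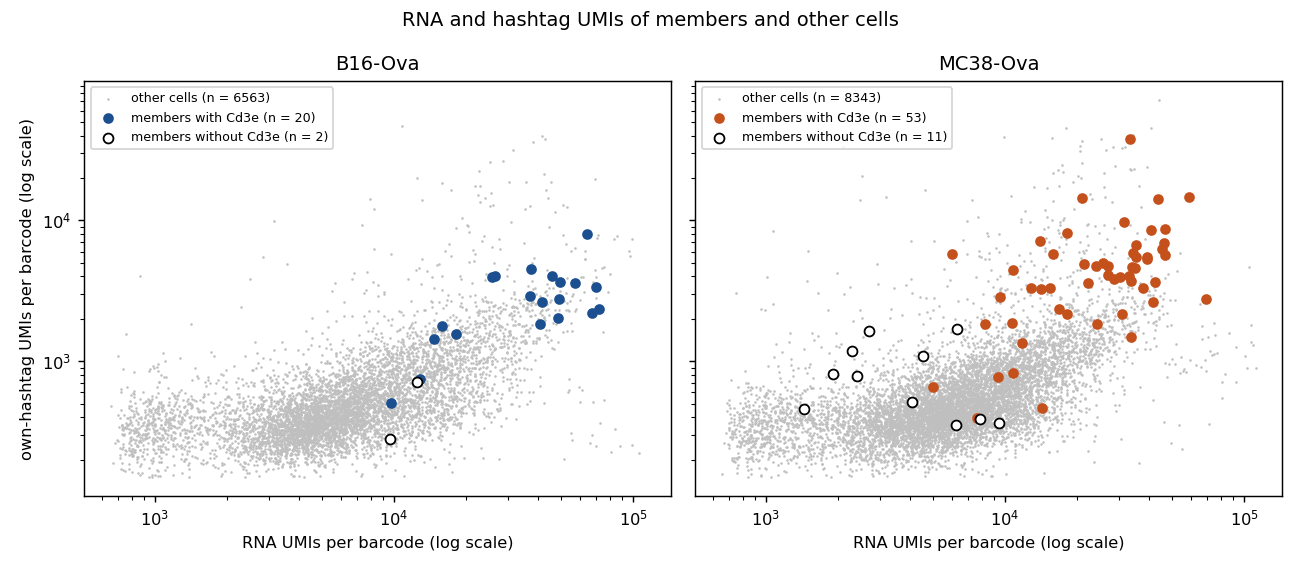
RNA UMIs and own-hashtag UMIs per barcode, both on log axes. Grey points are other cells, filled points are macrophage-transcript barcodes with a Cd3e UMI and open points those without (members in the plots are these barcodes). Most filled points lie in the upper right, with a median of 30675 RNA UMIs over 73 barcodes.

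T cell RNA was present in most of them. Cd3e, a chain of the T cell receptor complex, was detected in 20 of 22 B16-Ova barcodes (90.9%, 70.8 to 98.9) and 53 of 64 MC38-Ova barcodes (82.8%), against 94.8% and 93.7% of other cells. It ran from 0 to 72 UMIs (median 24) and from 0 to 49 (median 11), where other cells had a median of 7. At 1000 UMIs per barcode the shares were 54.5% and 40.6%, against 67.3% and 65.7%. Per barcode, the 16 genes of the T cell list summed to 1 to 444 UMIs in B16-Ova (median 210.0) and to 0 to 379 in MC38-Ova (median 88), with medians of 48 and 50 in other cells. Over all barcodes they stood at 5362 and 5350 CPM, against 7845 and 8030 in other cells. All 16 were counted in both tumours and none passed 2-fold, with a median log2 ratio of -0.55 and -0.59 beside 0.03 and -0.12 over all genes counted.

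The Trbv segments of the T cell receptor β chain were read next, because 1 T cell usually transcribes 1 productive segment. At least 2 UMIs of 2 or more segments were found in 50 of 86 macrophage-transcript barcodes (58.1%) and of 5 or more segments in 23 (26.7%, 17.8 to 37.4). None reached 2 UMIs in 24 barcodes (27.9%). Among other cells of 3000 to 10000 RNA UMIs, 20.1% held 2 or more segments and 2 of 8258 (0.0242%) held 5 or more. Among other cells of at least 20000 RNA UMIs, 81.3% held 2 or more and 20.5% held 5 or more. The many-segment barcodes were thus shared with other deep barcodes and nearly lacking at ordinary depth.

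Other signs of mixed cells moved in the same way. Cd8a of CD8 T cells and Foxp3 of regulatory T cells occurred together, with at least 2 UMIs each, in 26 of 86 selected barcodes (30.2%), in 7.80% of other cells and in 47.7% of other cells of at least 20000 RNA UMIs. The hashtag of the other tumour reached 150 UMIs in 26 of 86 (30.2%), in 4.23% of other cells and in 19.5% of the deep ones. Droplets that caught several cells and clumps already present in the sort cannot be told apart here.

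**Figure D3:**
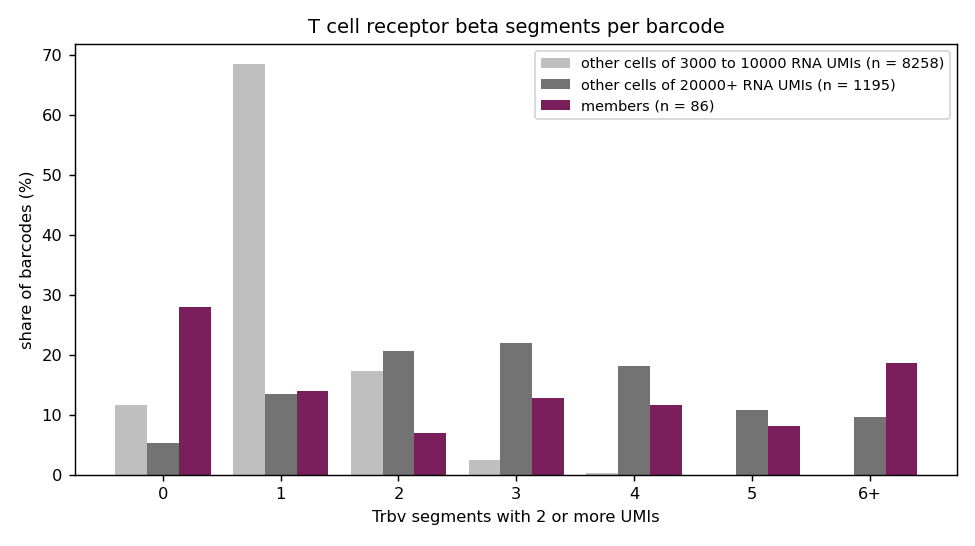
Share of barcodes (%) by the number of Trbv segments with at least 2 UMIs, for the 86 macrophage-transcript barcodes, for other cells of 3000 to 10000 RNA UMIs and for other cells of at least 20000. At 0 segments the macrophage-transcript bar is the highest of the 3 sets, and the bars reach into 5 or more, where the ordinary-depth cells have 0.0242%.

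No Cd3e UMI was found in 13 barcodes, 2 of B16-Ova (9580 and 12525 RNA UMIs) and 11 of MC38-Ova (1444 to 9472). Their T cell list summed to 0 to 30 UMIs per barcode with a median of 2, and 11 of the 13 reached 2 UMIs of no Trbv segment. These 13 were compared with the 73 that held Cd3e. Among 3158 genes counted, 278 (8.8%) stood 2-fold or more higher without Cd3e and 528 (16.7%) lower. Macrophage genes filled the first set: 23 of 26 counted core macrophage genes, 8 of 9 scavenger and lectin receptors and 5 of 5 class II genes. T cell genes filled the second, as a split on Cd3e sets: 15 of 16 of the T cell list and 5 of 6 of the CD8 list.

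The factor between the 2 sets differed from gene to gene. Lyz2, C1qa and C1qb also chose the barcodes, and a fixed UMI minimum asks for a higher CPM in shallow barcodes. The part of this in their ratios was not tested. In the set without Cd3e, single barcodes held 158, 212 and 149 of the 645 Lyz2 UMIs. Leaving out the top barcode of each set gave a Lyz2 ratio of 7.92. Lyz2 was 9.82 times as high without Cd3e, Ccl6 (a myeloid chemokine) 7.13 times, Cybb (the NADPH oxidase subunit) 6.33 times, Tyrobp (a signalling adaptor of myeloid receptors) 4.03 times, Csf1r 3.71 times and H2-Aa 2.83 times. Without the top barcode of each set Ccl6 stood at 5.26 times, Cybb at 5.87, Tyrobp at 3.71, Csf1r at 3.16 and H2-Aa at 2.20. C1qa stood at 1.55 times, C1qb at 1.02 and Arg1 at 1.24. These 3 became 1.31, 0.883 and 0.871 times without the top barcodes, so C1qb and Arg1 kept no direction. Ccl8, a monocyte-attracting chemokine, stood at 0.0296 times, and Hmox1, which degrades haem, at 0.395 times. Both rested in part on single barcodes, which held 48.4% of the Ccl8 and 53.0% of the Hmox1 UMIs of the barcodes with Cd3e. Without the top barcode of each set Hmox1 stood at 0.528 times, no longer 2-fold lower, and Ccl8 held 0 UMIs against 551. Plac8 and Tgfbi, both high in monocytes, were 4.70 and 4.95 times as high without Cd3e, and 3.66 and 4.16 times without the top barcodes. Of 7 counted genes of the monocyte list, 4 stood 2-fold or more higher without Cd3e and 1 lower.

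Against all other cells of the same tumour, 164 of 2664 counted genes (6.16%) stood 2-fold or more higher in the B16-Ova macrophage-transcript barcodes and 48 (1.8%) lower. In MC38-Ova these were 209 of 4219 (4.95%) and 46 (1.09%). A gene was counted where the larger of the 2 levels would give 50 UMIs in the selected sum. Since C1q, Lyz2 and Cd74 of the same cells chose the barcodes, these counts describe what came with the selected genes.

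Genes of macrophage identity and sensing are given first. Of the core macrophage list, 23 of 25 counted genes in B16-Ova and 24 of 27 in MC38-Ova stood 2-fold or more higher, with a median log2 ratio of 5.57 and 4.96. Csf1r stood at 69.1 CPM against 0.443 in B16-Ova, and at 88.9 against 1.10 in MC38-Ova. Fcgr1, the high-affinity IgG receptor, was 249 and 94.1 times as high, and Spi1, the myeloid master transcription factor PU.1, 258 and 51.5 times. Aif1 (the cytoskeletal protein Iba1) was 81.0 and 85.6 times as high. Cd68, a lysosomal membrane protein, was 27.4 and 9.28 times as high. The adaptors Tyrobp and Fcer1g stood at 32.9 and 11.1 times and at 9.47 and 8.65 times.

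Genes of MHC class II presentation stood higher together, with 5 of 5 counted genes higher in both tumours and a median log2 ratio of 6.16 and 5.40. H2-Aa, the class II α chain, ran from 0 to 257 UMIs per barcode in B16-Ova (median 13.5) and from 0 to 291 in MC38-Ova (median 30). Its level was 1356 CPM against 14.2 in B16-Ova, a ratio of 95.7 (87.5 to 105), and 1744 against 41.2 in MC38-Ova, a ratio of 42.4 (40.2 to 44.7). The β chains H2-Ab1 and H2-Eb1 were 57.2 and 42.6 times and 71.3 and 47.4 times as high. Of 14 class I genes counted, none passed 2-fold in either tumour.

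Uptake receptors had a higher median log2 ratio than both lists above. All counted scavenger and lectin receptors stood higher, 5 of 5 in B16-Ova and 11 of 11 in MC38-Ova, with a median log2 ratio of 7.28 and 6.34. Trem2, a lipid-sensing receptor of tissue macrophages, was 369 and 96.4 times as high. It was found in 10 of 22 and 37 of 64 barcodes, and 1 barcode held 38.6% of its B16-Ova UMIs. Mrc1, the mannose receptor CD206, was found in 10 of 22 and 26 of 64 barcodes, as was Adgre1 (F4/80) in 10 of 22 and 28 of 64. Msr1, the class A scavenger receptor, stood at 66.8 CPM against 0.486 in MC38-Ova. Cd163 and Marco had 8 UMIs or fewer in either sum and were not counted.

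Lysosomal and lipid-handling genes stood higher by smaller factors. Of 23 counted, 19 were higher in B16-Ova and 14 in MC38-Ova, with a median log2 ratio of 2.20 and 1.52. Apoe stood at 334 CPM against 27.9 (12 times) in B16-Ova and at 638 against 11.3 (56.2 times) in MC38-Ova. Lgmn, the lysosomal protease legumain, was 42.8 and 19.1 times as high. The cathepsin Ctss was 6.09 and 7.27 times as high, the cysteine protease inhibitor Cst3 5.35 and 6.11 times, the sphingolipid activator precursor Psap 10.2 and 5.26 times, and Grn (progranulin) 7.85 and 4.54 times. Gpnmb, which melanocytes also express, went the other way, at 0.404 times in B16-Ova, where the other cells include melanoma RNA. Of 6 counted iron and haem genes, 5 stood higher in each tumour, with Slc11a1, the phagosomal metal transporter, at 35.8 and 23.4 times.

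Arg1 stood at 264 CPM against 1.64 in B16-Ova, 161 times (126 to 206), and at 863 against 8.07 in MC38-Ova, 107 times (96.9 to 118). Nos2, the inducible nitric oxide synthase that uses the same substrate, was found in 4 of 22 and 12 of 64 barcodes and was under the count minimum in both tumours. Of the arginine and alternative activation list, 4 of 6 counted genes were higher in B16-Ova and 7 of 10 in MC38-Ova. Retnla, a gene induced by type 2 cytokines, rested on 1 barcode in each tumour, which held all of its 73 and 13 UMIs.

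Among secreted signals, 9 of 12 counted chemokine ligands were higher in B16-Ova and 11 of 15 in MC38-Ova. Il1b, the cytokine interleukin-1β, stood at 519.9 CPM against 1.74 (299 times, 241 to 373) and at 304 against 3.87 (78.6 times). Cxcl2, a neutrophil attractant, was 53.8 and 18.9 times as high, but 59.9% of its B16-Ova UMIs came from 1 barcode. Pf4 (platelet factor 4, also made by macrophages) was 184 and 118 times as high and Ccl6 126 and 46.2 times. Ccl8 and Cxcl9, the latter an interferon-γ-induced T cell attractant, were 291 and 250 times as high in B16-Ova and 19.2 and 6.98 times in MC38-Ova. Ccl3, which CD8 T cells make, stood at 0.474 times in MC38-Ova, where 68.6% of the selected barcodes' UMIs came from 1 barcode.

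The interferon, proliferation and N-glycan lists were mixed. Of the interferon response list, 4 of 17 were higher in B16-Ova and 1 of 23 in MC38-Ova, with a median log2 ratio of 0.33 and 0.20 beside 0.03 and -0.12 over all genes counted. None of 18 proliferation genes was higher in either tumour, and 2 were lower in MC38-Ova. Of the N-glycan branching and capping list none of 3 and none of 8 was higher. Mgat5 had 4 UMIs in the B16-Ova sum (4.85 CPM against 17.3, a ratio of 0.281, 0.0764 to 0.722, not counted) and stood at 18.0 against 18.7 CPM in MC38-Ova.

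Among genes at 200 CPM or more in the other cells of both tumours, the lowest ratios belonged mostly to genes of T cells. They included the NK-type receptor Klrc1 (0.520 and 0.445 times), Ms4a4b (0.425 and 0.524) and the early activation antigen Cd69 (0.317 and 0.596). Also among them were the costimulatory receptor Cd28 (0.598 and 0.533), Pdcd1, which encodes PD-1 (0.624 and 0.520), and Thy1, the CD90 antigen of the sort (0.614 and 0.632). The lowest of these was Cd69 in B16-Ova.

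Markers of further cell types differed from list to list. The melanoma list summed to 43.6 CPM against 551 in other B16-Ova cells, with 5 of 5 counted genes lower, and to 24.7 against 134 in MC38-Ova. Neutrophil and mast cell markers summed to 17.0 CPM against 11.9 and to 21.4 against 9.65. The epithelial list stood at 13.3 against 13.8 and 20.7 against 24.2 CPM, and erythroid markers at 0 against 73.0 and 0.668 against 36.8. The monocyte list stood at 1914 against 2340.3 and 2990.1 against 2953 CPM, and the dendritic cell list at 188 against 208 and 179.8 against 174 CPM. Fibroblast and endothelium markers stood at 8.48 against 28.6 CPM in B16-Ova and at 211 against 163 in MC38-Ova. In the last case 1 barcode of 68954 RNA UMIs held most of them, with 187 UMIs of the collagen gene Col3a1, 1 of Cd3e and no Trbv segment at 2 UMIs.

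Among the 86 barcodes, 18 held no C1q UMI, 6 of 22 in B16-Ova and 12 of 64 in MC38-Ova, and passed the rule on Lyz2. Against the 68 with C1q, 44 of 3158 counted genes (1.39%) stood 2-fold or more higher and 61 (1.93%) lower. All 5 counted class II genes were in the first set, with H2-Aa at 2.32 times, H2-Eb1 at 2.37, H2-Ab1 at 2.28, and the peptide-exchange genes H2-DMa and H2-DMb1 at 2.19 and 2.16. Lyz2, which the split favours by construction, stood at 3.41 times. Lower without C1q were Ccl8 (0.00442 times), Ccl12 (0.0403), Mrc1 (0.0916), the membrane protein Ms4a7 (0.129), Spp1 (osteopontin, 0.130), the endocytic adaptor Dab2 (0.228) and Hmox1 (0.264). A single C1q-bearing barcode held 74.8% of the Spp1 UMIs of its set and another 55.2% of the Hmox1 UMIs, and without the top barcode of each set the ratios were 0.218 and 0.433. Xcr1, the chemokine receptor of cross-presenting dendritic cells, was found in 3 of 86 barcodes with 6, 14 and 3 UMIs, and none of the 3 held C1q. These 3 carried 219, 291 and 78 of the 1228 H2-Aa UMIs of the C1q-free barcodes. Without them H2-Aa stood at 1.64 times, H2-Eb1 at 1.53, H2-Ab1 at 1.5 and H2-DMb1 at 1.77, all under 2-fold, and H2-DMa at 2.11, while 45 genes stood higher and 92 lower.

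H2-Aa was at 0 in 8 barcodes. Of these, 4 held more than 100 Lyz2 UMIs: 2 in B16-Ova, with 158 and 116 Lyz2 and 5 and 6 Cd74 UMIs, and 2 in MC38-Ova, with 212 and 149 Lyz2 and 6 and 26 Cd74 UMIs. In the order given, these 4 carried 24, 6, 5 and 67 UMIs of Ly6c2 and 16, 30, 15 and 65 of Plac8, both genes of circulating monocytes. Neither gene was confined to such barcodes, as an MC38-Ova barcode with 36 Cd3e UMIs held 133 of Ly6c2 and 59 of Plac8. The C1q-free barcodes thus ran from no H2-Aa UMI to 291.

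Arg1 split the barcodes in another way. At least 3 Arg1 UMIs were found in 6 B16-Ova and 39 MC38-Ova barcodes, 0 in 16 and 17, and 1 or 2 in 8 of MC38-Ova. The barcodes with Arg1 were also deeper, with a median of 47209.5 RNA UMIs against 37169 in B16-Ova, and of 26956 against 11727 in MC38-Ova. Their median Cd3e was 29.5 against 24 UMIs, and 18 against 3. Of 1181 genes counted, 5 (0.423%) stood 2-fold or more higher with Arg1 in both tumours and 3 (0.254%) lower. The 5 were Cxcl2 (4.29 and 3.99 times), the lysosomal protease Ctsl (10.4 and 3.07), Hmox1 (14.2 and 2.20), the cytoskeletal linker Plec (2.35 and 2.31) and AY036118 (3.49 and 9.63). The 3 were Cst3 (0.413 and 0.118), the interferon-induced chemokine Cxcl10 (0.417 and 0.346) and the growth factor Areg (0.436 and 0.239). In B16-Ova the split rests on 6 barcodes, of which 1 held 296 Hmox1 UMIs and another 327 Cxcl2 UMIs. Among the barcodes without Arg1, 1 held 287 of the 632 Cst3 UMIs in B16-Ova and 1 held 734 of the 1293 in MC38-Ova. The Cst3 ratios without these barcodes were not computed. When each barcode was thinned to 2000 RNA UMIs no gene stayed higher and 1 stayed lower.

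Most genes of the core macrophage list stood within 2-fold between MC38-Ova and B16-Ova barcodes. Of 3158 genes counted, 97 (3.07%) stood 2-fold or more higher in MC38-Ova and 99 (3.13%) lower, with a median log2 ratio of -0.11. Scaling by the median of ratios removed that shift and gave 119 higher and 68 lower, so that 63.6% of the calls were higher in place of 49.5%. Without the barcode that held most of each gene's UMIs in each tumour, 90 of the 97 and 78 of the 99 remained past 2-fold. Of 26 counted core macrophage genes none was higher and 1, Cd68, was lower (0.480 times), with a median log2 ratio of -0.02. None of 5 class II genes passed 2-fold. A wider set held the 85 counted genes that stood 8-fold or more above other cells in both tumours. Of these, 10 were 2-fold or more higher in MC38-Ova and 9 lower, of which 10 and 7 remained without the top barcodes. Genes that set these barcodes apart from other cells thus passed 2-fold between tumours more often than all counted genes.

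Arg1 differed between the tumours. It stood at 863 CPM in MC38-Ova and 264 in B16-Ova, a ratio of 3.27 (2.83 to 3.79), and 47 of 64 against 6 of 22 barcodes held it. A single barcode held 47.7% of the B16-Ova UMIs, and the ratio without the top barcode of each tumour was 5.59. The other cells, at a far lower level, showed a ratio of 4.91. The per-barcode ranges overlapped in full, with highest values of 100 and 104 UMIs, but the medians were 8.5 and 0.

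Several secreted and surface proteins stood higher in MC38-Ova. Ccl12, a monocyte attractant, stood at 149.7 against 14.5 CPM (10.3 times, 5.78 to 20.2), found in 28 of 64 and 3 of 22 barcodes. Cxcl16, the ligand of Cxcr6 on tumour T cells, stood at 2.51 times (medians of 2 and 1 UMIs) and was found in 52 of 64 and 13 of 22. Tgfbi, a matrix protein induced by TGF-β, stood at 419 against 178 CPM (2.35 times), with medians of 8.5 and 4.5 UMIs. C5ar1, the receptor of the complement fragment C5a, stood at 2.25 times, and Mmp14, a membrane collagenase, at 4.69 times, with 40.3% of its MC38-Ova UMIs from 1 barcode. In the other cells of the 2 tumours Cxcl16 stood at 3.39 times, Tgfbi at 4.37 and Ccl12 at 1.74.

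Interferon genes leaned to MC38-Ova, with 6 of 21 counted genes higher and 1 lower and a median log2 ratio of 0.28. Isg15, a ubiquitin-like modifier, was detected in 64 of 64 and 21 of 22 barcodes and stood at 747 against 301 CPM (2.49 times). Irf7, the transcription factor that amplifies type I interferon, stood at 2.78 times and the antiviral tether Bst2 at 2.06 times. These genes were also higher in the other cells of MC38-Ova, at 2.15 times for Isg15 and 2.03 times for Irf7. Most of the selected barcodes also held T cell RNA, whose part in these ratios was not tested. Ifitm1 (12.3 times) likewise differed in the other cells, at 11.8 times.

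Higher in B16-Ova were Wfdc17, a small secreted protein of activated macrophages, and Ccl6. Wfdc17 stood at 444 CPM in B16-Ova and 78.9 in MC38-Ova (0.178 times, 0.143 to 0.219), with medians of 9 and 0 UMIs, and was found in 17 of 22 and 28 of 64 barcodes. The ratio was 0.165 without the top barcodes. Ccl6 stood at 549 and 143 CPM (0.261 times, 0.373 without the top barcodes), with medians of 5.5 and 1 UMIs. Il1rn, the interleukin-1 receptor antagonist, stood at 0.243 times and Slc11a1 at 0.426.

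Cxcl9 stood at 345 CPM in the B16-Ova barcodes and 92.9 in the MC38-Ova barcodes (0.269 times, 0.314 without the top barcodes). In the other cells its ratio had the opposite direction, 9.65 times as high in MC38-Ova. Neither contrast has a replicate, and the difference between them was not tested.

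Single barcodes carried other large ratios. Spp1 stood at 0.106 times in MC38-Ova, but 86.8% of the B16-Ova UMIs came from 1 barcode and the ratio without the top barcodes was 0.411. For Ccl8 (0.174 times) 1 barcode held 516 UMIs, 63.5% of the B16-Ova sum, and without the top barcodes the ratio was 0.318. For Hmox1 (0.239 times) 74.9% came from 1 barcode and the ratio became 0.639. Gzmc, a granzyme of CD8 T cells, went from 0.0902 to 1.04 times. On the MC38-Ova side H19, Sparc, Col3a1 and Gng11 took 98.1%, 99.5%, 100% and 96.9% of their UMIs from the collagen-bearing barcode described above. Without the top barcodes Gng11 held 5 UMIs in each tumour (0.544 times) and H19 held 4 in MC38-Ova and 0 in B16-Ova, a lower bound of 0.708 times against the floor of 3 counts. Ccl24, an eosinophil attractant, was at least 36.6-fold higher in MC38-Ova against the same floor, with 79.9% of its 199 UMIs from 1 barcode, and at least 6.94-fold without it.

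Proliferation genes differed together, with 15 of 17 counted genes 2-fold or more lower in MC38-Ova and a median log2 ratio of -1.57. Mki67 stood at 43.4 against 169.7 CPM (0.256 times) and Top2a, the DNA topoisomerase of dividing cells, at 44.8 against 176 (0.255 times). Top2a was found in 18 of 64 and 17 of 22 barcodes. In the other cells the ratios were 0.668 and 0.705, so the contrast there was in the same direction and smaller. The Treg receptor Ccr8 stood at 0.0840 times, and 3 of 6 CD4 and Treg genes were lower. In the split by Cd3e, 9 of 17 counted proliferation genes stood lower in the barcodes without Cd3e. Any link of that split to the tumour contrast was not tested.

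**Figure D4:**
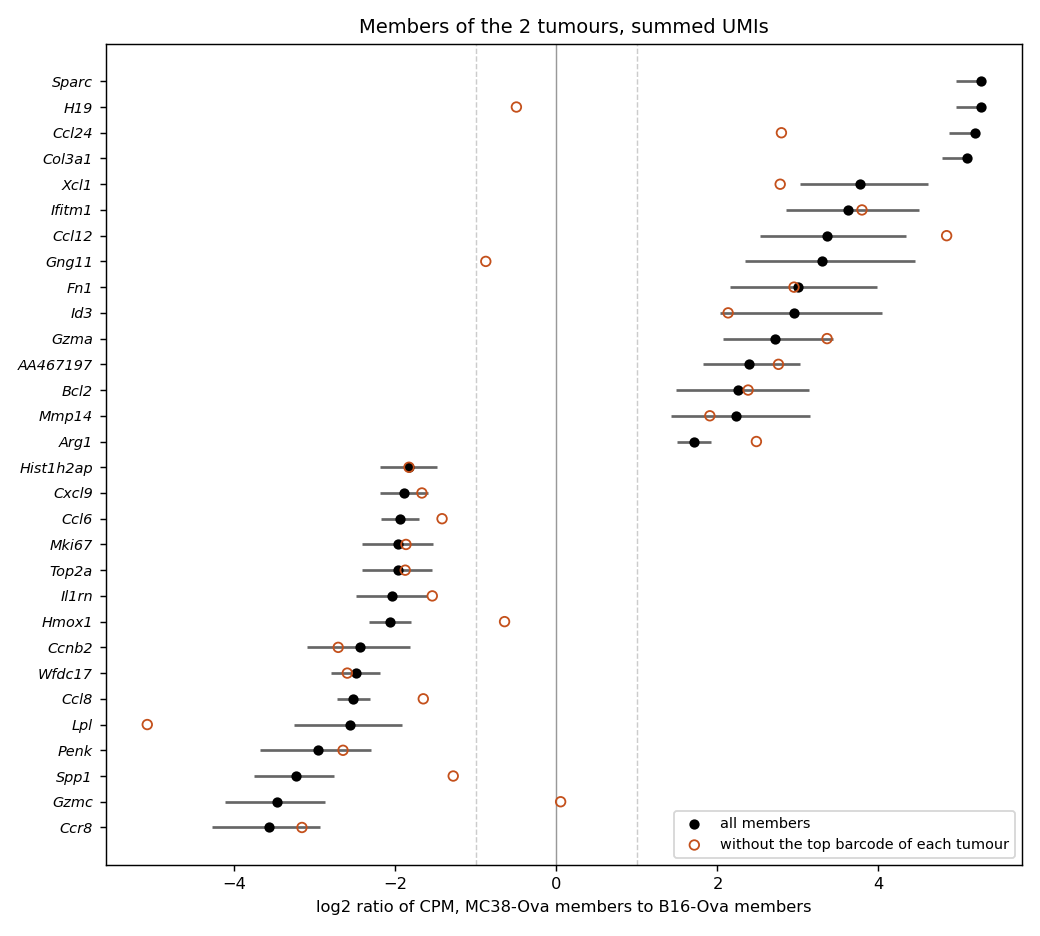
Ratio of MC38-Ova to B16-Ova CPM in the macrophage-transcript barcodes on a log2 axis, for the 15 genes in each direction whose 95% interval lay farthest from equality. Black points carry the 95% interval for counting error, and orange points leave out the top barcode of each tumour. Points with an interval on their left only are lower bounds against the floor of 3 counts in B16-Ova. The orange points of Gng11 and Gzmc fall on the other side of 0, as does the lower bound of H19, and Sparc and Col3a1 have none.

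L-Pha is given first among the surface tags. It ran from 700 to 19858 UMIs per barcode in B16-Ova (median 4602) against a median of 406 in other cells, 11.3 times, and from 490 to 16178 in MC38-Ova (median 3330.5) against 379, 8.79 times. The deeper of the other cells also carried more L-Pha UMIs. Against other cells of at least 20000 RNA UMIs, with medians of 1940.5 and 1540, the ratios were 2.37 and 2.16. Per 100 own-hashtag UMIs, L-Pha stood at 173 against 88.5 (1.96 times) and at 104 against 74.1 (1.41 times). Per 1000 RNA UMIs the ratios were 1.52 and 2.16. Over all macrophage-transcript barcodes L-Pha thus stood above both sets of other cells per barcode, and above all other cells on the 2 further scales. Per 100 own-hashtag UMIs and against the deep other cells the ratios were 1.26 and 1.16.

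The barcodes without Cd3e held 0 to 30 UMIs of the T cell list each, and 3 of the 13 held at least 2 Cd8a UMIs. Their L-Pha medians were 990 UMIs in B16-Ova (2 barcodes, 2.44 times other cells) and 875 in MC38-Ova (11 barcodes, 539 to 2629, 2.31 times). Against the deep other cells these medians were lower, at 0.510 and 0.568 times, while per 100 own-hashtag UMIs they stood at 2.44 and 2.15 times all other cells. Per 1000 RNA UMIs the B16-Ova median was 87.6 against 69.7 (1.26 times) and the MC38-Ova median 362 against 65.1 (5.57 times). No capture was made without the lectin, so binding of the anti-biotin tag itself, and Fc receptor binding of antibody tags by macrophages, was not tested.

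PD-1 and Tim-3, inhibitory receptors of exhausted T cells, did not keep a direction across scales. PD-1 medians were 58 against 18 UMIs in B16-Ova (3.22 times) and 48.5 against 18 in MC38-Ova (2.69 times), but per 100 own-hashtag UMIs the ratios were 0.602 and 0.581. Tim-3 medians were 43 against 20 (2.15 times) and 40 against 20 (2.00 times), and 0.383 and 0.314 times per 100 own-hashtag UMIs. In the barcodes without Cd3e the PD-1 medians were 17.5 and 23 UMIs, against 18 in other cells of each tumour. The Tim-3 medians were 14.5 and 17, against 20. Per 1000 RNA UMIs these barcodes stood at 0.581 and 2.26 times all other cells for PD-1, and at 0.417 and 1.44 times for Tim-3. An MC38-Ova barcode of 27005 RNA UMIs held 13001 Tim-3 UMIs, within the range of other cells, whose highest value was 30466.

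**Figure D5:**
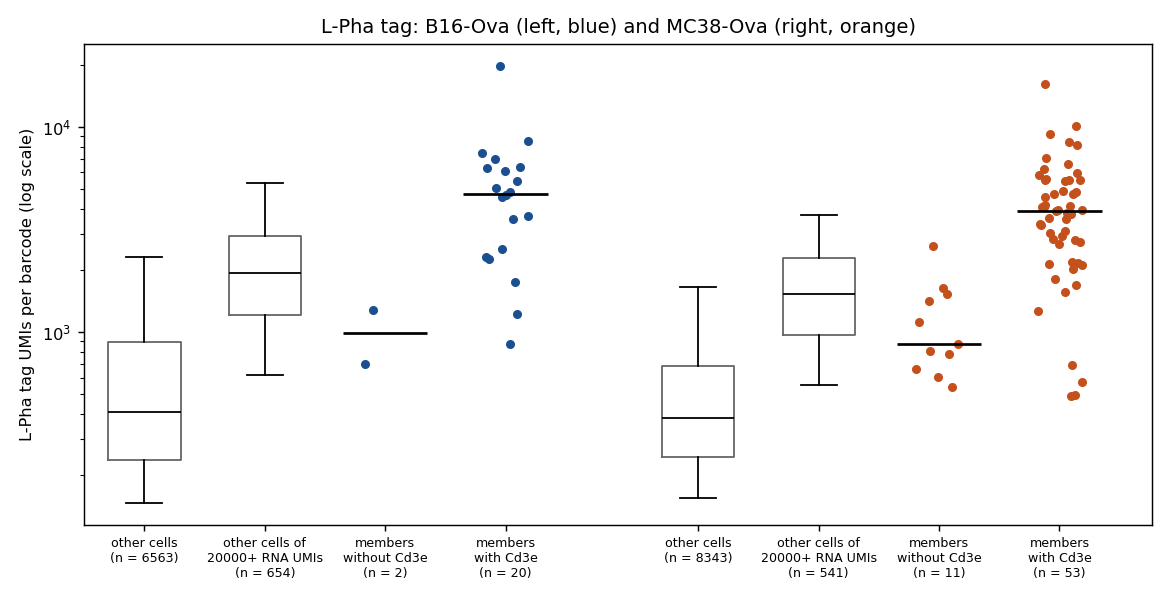
L-Pha UMIs per barcode on a log axis, by tumour. Boxes give the 5th, 25th, 50th, 75th and 95th percentiles of all other cells and of other cells of at least 20000 RNA UMIs, and points are macrophage-transcript barcodes without and with a Cd3e UMI, with a line at the median. The median line is highest for barcodes with Cd3e, and the points without Cd3e lie above the median of all other cells.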

How the data were processed

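RNA and tag molecules of pooled B16-Ova and MC38-Ova tumour T cells were read in 1 droplet capture. The deposited values are raw UMI counts for each feature in each barcode (31053 genes, 2 hashtags and 3 antibody tags in 19912 barcodes), per the file headers, which name software version 3.0.2. The authors used Cell Ranger 3.1.0, R 3.6.1 and Seurat 3.1.0 with mm10, per the submitters' processing notes. The annotation release and any filter on barcodes are not given in the sources used here. The T cell receptor library is not analysed here.

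Of all barcodes 18429 passed the cell filter and 14992 the hashtag rule. Barcodes whose larger hashtag was under 3 times the other were dropped and no doublet caller was run. Doublets within a tumour therefore remain, and some between tumours may remain. Of the 86 selected barcodes, 26 held at least 150 UMIs of the other hashtag. The selected barcodes and the gene lists were chosen with earlier results of these data known. Ifi30 and Clec7a of the lists had no match in the matrix. UMIs were summed per tumour (825104 in B16-Ova and 1496247 in MC38-Ova macrophage-transcript barcodes) and scaled to CPM with Python 3.11.15, numpy 2.4.6, scipy 1.17.1 and pandas 2.3.3. Genes were compared at 50 UMIs or more in the smaller set against other cells, and at 100 or more in both sums together otherwise. Past 2-fold is called. Ratios carry exact conditional 95% intervals and shares exact Clopper-Pearson intervals, and a sum of 0 was given a floor of 3 counts. Genes were named where they had the 20 largest or 10 smallest ratios at 200 CPM or more in both tumours, the 15 intervals farthest from equality between tumours in each direction (without receptor segments, Xist and Y-linked genes), the 10 largest changes with Arg1, or a place in a gene list. Xcr1 in single barcodes, the collagen-bearing barcode and the splits by C1q and by Cd3e were singled out after values were seen. Coordinates are those of GRCm38 (GENCODE vM21), matched by gene ID. The ratios and their intervals were tested on simulated counts, and the thinning was checked on the MC38-Ova macrophage-transcript barcodes. Alternatives were other thresholds, hashtag ratios, count minimums, scalings and depths, and those added after seeing the data used deep cells for comparison, C1q-bearing barcodes, or left out single or Xcr1-bearing barcodes.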

Additional observations from a re-analysis of the deposited data

Results flagged for a closer look

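Barcodes with both hashtags at 150 UMIs or more and within 3-fold entered no comparison, and some also held macrophage transcripts. Of 2388 such barcodes, 12 (0.503%, exact 95% interval 0.260 to 0.876) met the same rule on C1q, Lyz2 and Cd74. Their median was 17734.5 RNA UMIs and 10 Cd3e UMIs, and none of the 12 lacked Cd3e. No control capture exists against which to set this count.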

How the results depend on the processing

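No paired analysis was possible because each tumour is 1 pool of cells. Over all alternatives 61 of 92 counts of genes and 41 of 66 tag ratios stayed within 1.5 times, while 14 tag ratios moved and 11 changed direction. Of 20 shares, 16 stayed inside the exact interval of the main share. Of 1218 log2 values of single genes, 932 stayed, 272 moved and 14 changed sign. Where not said otherwise the cause was not tested. With barcodes without Cd3e alone (2 and 11), the shares were 0.0304% and 0.131%. Genes higher and lower than in other cells numbered 20 and 8 in B16-Ova and 32 and 15 in MC38-Ova, and between tumours 7 and 2, with fewer barcodes summed. L-Pha stood at 2.44 and 2.31 times other cells, PD-1 at 0.972 and 1.28, and Tim-3 at 0.725 and 0.85. The log2 tumour ratios of Ccl12, Bcl2 and Mmp14 became -0.16 and that of Il1rn 0.26. A hashtag ratio of 10 left 16 and 43 barcodes, shares of 0.562% and 1.48% among fewer cells, 28 genes lower in B16-Ova, an L-Pha ratio of 7.45 there, and a Cxcl10 log2 ratio of 0.09 with against without Arg1 in B16-Ova. A marker minimum of 20 left 3 genes higher with Arg1. Without the tenth of barcodes with most RNA, 23 genes stayed lower in B16-Ova, 58 higher in MC38-Ova than in B16-Ova, and log2 ratios became -0.38 for H19, -1.47 for Gng11 and -0.56 for Cxcl2 (with Arg1, B16-Ova). Median-of-ratios scaling gave 27 genes lower in MC38-Ova than in other cells. With the UMI minimums lowered to 25 and 50, genes higher and lower numbered 270 and 105 (B16-Ova), 331 and 131 (MC38-Ova), 181 and 197 (between tumours) and 9 and 9 (Arg1), and without a minimum 1894 and 826, 1933 and 831, 2357 and 1704, and 522 and 460, since more genes were counted. Tag ratios per 100 own-hashtag UMIs were 1.96 and 1.41 (L-Pha), 0.602 and 0.581 (PD-1), and 0.383 and 0.314 (Tim-3). Per 1000 RNA UMIs they were 1.52 and 2.16, 0.567 and 0.949, and 0.377 and 0.595. Thinning to 2000 UMIs left 0 genes higher and 1 lower with Arg1, and a Cxcl2 log2 ratio of -0.06 in MC38-Ova. The alternatives that follow were chosen after seeing the data. Against other cells of at least 20000 RNA UMIs, 16 genes were lower in B16-Ova and 191 in MC38-Ova, L-Pha stood at 2.37 and 2.16 times, PD-1 at 1.41 and 1.56, and Tim-3 at 1.26 and 1.25. Without each gene's top barcode the log2 tumour ratio was -0.50 for H19, -0.88 for Gng11 and 0.05 for Gzmc. Without the deepest MC38-Ova barcode H19 stood at -0.38 and Gng11 at -1.64. In the splits by Cd3e and C1q, 36 of 52 log2 values stayed without single or Xcr1-bearing barcodes and 16 moved, none in sign among those past 2-fold. The H19 values are lower bounds against the floor of 3 counts, since B16-Ova held 0.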

Other observations

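Galectin-3 (Lgals3), a secreted lectin that binds galactose-bearing glycans, and Sirpa, the receptor of the CD47 signal that restrains engulfment, were the genes of the checkpoint ligand and suppressor list that stood 2-fold or more higher than in other cells, 2 of 10 counted in B16-Ova and 2 of 11 in MC38-Ova. Lgals3 was 6.77 and 2.49 times as high. Of the chemokine and growth factor receptors, 2 of 7 and 5 of 12 were higher. The ferritin chains Ftl1 and Fth1 stood at 4.0 and 2.35 times and at 2.82 and 3.15 times. Cd274, which encodes PD-L1, stood at 64.2 against 52.5 CPM in B16-Ova and at 93.6 against 62.9 in MC38-Ova, under 2-fold in both.

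The MC38-Ova barcodes also carried some genes of T cells at other levels than the B16-Ova barcodes. Gzma, a granzyme of cytotoxic cells, stood at 6.56 times, Id3, a transcription regulator of T cells, at 7.72 times, and Bcl2, a survival protein, at 4.78 times. A single barcode held 58.6% of the MC38-Ova Id3 UMIs, and the Id3 ratio without the top barcodes was 4.38. The chemokine Xcl1 stood at 13.6 times, with 67.8% of its MC38-Ova UMIs from 1 barcode. In the same barcodes Penk, the enkephalin precursor expressed in some Treg cells, stood at 0.128 times. Of its B16-Ova UMIs 62.6% came from 1 barcode, and the ratio without the top barcodes was 0.159.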
